A study of Mus musculus and Homo sapiens with 30 samples.

Results

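Glutathione S-transferase transcripts were followed in 3 mammary cell lines that received medium conditioned by lean or obese fat cells. The set held 10 mouse genes (Gsta1, Gsta2, Gsta3, Gsta4, Gstm1, Gstm2, Gstm5, Gstp1, Gsto1 and Mgst1) of 56980 gene IDs in the mouse table. In the human table it held GSTP1 and MGST1, 2 of 61552 gene IDs. The mouse genes were taken by name, and the choice is treated here as made from the NMuMG comparisons of lean secretome with obese secretome and with control medium. Values of the members in those comparisons are therefore given as a description without a test.

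Poly(A) RNA was sequenced from 30 libraries. E0771 is a mouse mammary cancer line (3 replicates per medium), NMuMG a mouse mammary gland epithelial line (3 per medium) and SkBr3 a human breast cancer line (4 per medium). The labels list all 3 lines as breast cancer and mention no genetic change, so each group differs from the others of its line by medium alone, as far as the labels say. Cells grew for 36 h in DMEM with 10% serum, to which insulin (10 mcg/ml) and glucose (4.5 g/L) were added for NMuMG. They were then kept for 16 h in their standard growth medium (control), or in equal parts of growth medium and the secretome of inguinal adipocytes, lean or obese (50% secretome). The species of the adipocytes is not given in the labels, and the control medium held no secretome. The labels do not say that replicates were separate cultures, so p-values measure the spread between these libraries, which may be technical. In bulk RNA, fewer cells of a type and less RNA per cell cannot be told apart.

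Glutathione S-transferases join the tripeptide glutathione to reactive, electrophilic molecules, which makes these more soluble and ready for export from the cell. The cytosolic enzymes are grouped into classes by sequence, among them alpha (Gsta genes), mu (Gstm), pi (Gstp) and omega (Gsto), and Mgst1 belongs to a separate membrane-bound family. Several alpha enzymes and Mgst1 also reduce lipid hydroperoxides, and Gsta4 is known for clearing hydroxynonenal, an aldehyde released when membrane lipids oxidise. Many genes of the family respond to the transcription factor NRF2 (Nfe2l2), which binds the antioxidant response element, and some respond to the aryl hydrocarbon receptor (Ahr). By its title, the study concerns an oxylipin, a kind of oxidised fatty acid, released by lean fat cells, and ferroptosis, the death of cells whose membrane lipids are oxidised.

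The sequences upstream of 5 members are printed. Gsta1 and Gsta2 were chosen because the pair cannot be fully separated by sequence. Gsta3, Gstm5 and Mgst1 were chosen because theirs hold the core of the antioxidant response element, not for their differences between media. Printed are the 250 bases before the annotated start site, 5′ to 3′ on the gene's strand, from RefSeq on GRCm38.p6. The deposited counts were made on GRCm39, so these coordinates belong to the promoter table alone. For Gsta1 (chr9:78230419-78230668, plus strand) and Gsta2 (chr9:78347146-78347395, minus strand), capitals mark the longest run the pair shares, 29 bases. For Gsta3 (chr1:21240335-21240584, plus strand), Gstm5 (chr3:107895604-107895853, plus strand) and Mgst1 (chr6:138140277-138140526, plus strand), capitals mark the core of the antioxidant response element, TGACNNNGC, on either strand.
Gsta1: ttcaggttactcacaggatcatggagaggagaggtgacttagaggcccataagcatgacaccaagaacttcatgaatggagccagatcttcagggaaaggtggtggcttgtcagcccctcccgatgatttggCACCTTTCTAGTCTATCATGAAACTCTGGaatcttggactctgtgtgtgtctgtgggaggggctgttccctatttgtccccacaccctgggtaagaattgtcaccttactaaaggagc
Gsta2: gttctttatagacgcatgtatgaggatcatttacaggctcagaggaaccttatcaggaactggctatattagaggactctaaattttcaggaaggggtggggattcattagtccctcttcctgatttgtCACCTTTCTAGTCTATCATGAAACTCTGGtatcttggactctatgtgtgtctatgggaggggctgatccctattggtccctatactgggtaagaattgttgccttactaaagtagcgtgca
Gsta3: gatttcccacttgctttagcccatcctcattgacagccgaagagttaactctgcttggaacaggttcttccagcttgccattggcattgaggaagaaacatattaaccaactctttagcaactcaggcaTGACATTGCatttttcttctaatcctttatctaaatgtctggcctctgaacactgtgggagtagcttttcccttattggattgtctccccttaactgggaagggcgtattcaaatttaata
Gstm5: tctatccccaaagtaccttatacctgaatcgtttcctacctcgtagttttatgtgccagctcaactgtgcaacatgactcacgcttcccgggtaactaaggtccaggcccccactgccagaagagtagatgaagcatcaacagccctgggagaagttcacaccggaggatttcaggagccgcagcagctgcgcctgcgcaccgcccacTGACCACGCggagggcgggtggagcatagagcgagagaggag
Mgst1: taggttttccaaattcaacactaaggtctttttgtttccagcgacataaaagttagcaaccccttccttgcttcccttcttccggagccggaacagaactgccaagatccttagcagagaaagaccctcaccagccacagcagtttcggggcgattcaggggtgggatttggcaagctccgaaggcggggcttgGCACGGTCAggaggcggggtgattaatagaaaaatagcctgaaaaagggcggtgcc

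The shared run starts 118 bases before the start site in Gsta1 and 121 bases before it in Gsta2. Over the whole 300-base windows of the table, which reach 50 bases past the start site, the Gsta1 and Gsta2 promoters were 74.6% identical. The antioxidant response element core was searched on both strands of those windows. It was found in 3 of the 9 members with a promoter entry (Gsta3, Gstm5 and Mgst1) and in 12.39% of all 32851 promoters, at -121, -42 and -56 from the start site. The aryl hydrocarbon receptor core GCGTG was found in 5 of 9 members (Gsta1, Gsta2, Gstm1, Gstm5 and Gstp1), against 32.39% of all promoters. In Gstm5 it overlaps the antioxidant response element core. The AP-1 site TGACTCA was found in Gstm5 and Gstp1, 2 of 9, against 5.20% of all promoters. A match is a stretch of letters in this window and was not tested as a binding site. Members are counted by gene, with a match in any of its entries, while the shares of all promoters are by entry. Gstm1 and Mgst1 had further entries, and the further Mgst1 entry held 0 antioxidant response element cores. Gsta4 had no promoter entry in the table.

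The same likeness reached into the transcripts. Of the 150-base windows in the Gsta1 transcript, 73.7% also occurred in Gsta2 or in the predicted genes Gm3776 and Gm10639, and the share was 26.8% for Gsta2. For Gstp1, 41.8% of windows also occurred in Gstp2 or a Gstp pseudogene. The 7 other mouse members shared none. How the authors counted reads that match several genes is not given in the sources used here, so the division between Gsta1 and Gsta2, and between Gstp1 and Gstp2, is uncertain, while their sums are less so.

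Libraries held between 22929035 and 31094119 counts in E0771, between 23966897 and 29686456 in NMuMG and between 18479433 and 29195499 in SkBr3. Levels are given as CPM, counts per library total with no correction for composition, and, for comparing genes with one another, as CPM per kilobase of exon. Of the epithelial markers in E0771, Krt8 averaged 254 CPM in control medium, while Krt19 had 0 reads in all 9 libraries and Cdh1 averaged 0.143 CPM. Vim, a mesenchymal marker, averaged 3026 CPM there. NMuMG control libraries averaged 3446 CPM of Krt8 and 542 CPM of Cdh1. Adipocyte markers summed to between 0.751 and 1.61 CPM in E0771 and between 0.372 and 2.26 CPM in NMuMG, and 4 of the 10 were at 0 in all libraries of each line, Lep and Pck1 in both. In NMuMG their sum was 2.07 to 2.26 CPM in lean secretome, 0.372 to 1.08 CPM in obese secretome and 0.393 to 0.881 CPM in control medium, nearly all of it Cidec, and Adipoq averaged 0.0362 CPM in lean secretome. Of 12 stromal, immune and endothelial markers in E0771, 1 was at 0 in all libraries, and the sum, led by Col1a1, was 865 to 943 CPM in control medium, 375 to 401 CPM in lean secretome and 627 to 847 CPM in obese secretome. In NMuMG the same markers summed to between 6.97 and 10.3 CPM. The part of these markers in the results was not tested.

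In control medium the 2 mouse lines used different members of the family. Gsto1, an omega enzyme that reduces mixed disulfides and dehydroascorbate, had the highest level per length in NMuMG, 229 ± 3.36 CPM per kb (SD, n = 3). Gsta4 followed with 187 ± 3.84, then Gstp1 with 107 ± 8.28, Gstm1 with 17.2 ± 1.12, Gstm5 with 10.4 ± 0.576 and Mgst1 with 6.73 ± 0.330 CPM per kb. Gsta1 (3.29 ± 0.562), Gstm2 (1.96 ± 0.188), Gsta2 (0.961 ± 0.210) and Gsta3 (0.160 ± 0.050) were the lowest in CPM per kb, and no neighbours in this order had overlapping means ± SD. E0771 led with Gstp1, at 90.2 ± 1.68 CPM per kb, followed by Gsto1 (62.3 ± 2.59), Gstm1 (45.4 ± 1.75), Gsta4 (42.4 ± 3.54), Mgst1 (20.5 ± 1.80) and Gstm2 (17.7 ± 0.405). There, Gstm1 and Gsta4 differed by less than their spread.

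Gsta1, Gsta2, Gsta3 and Gstm5 were close to absent from E0771 RNA. Over all 9 libraries Gsta1 had 1 read, Gsta2 5 and Gsta3 2, of which 1, 4 and 2 were in lean secretome, and Gstm5 had 0. Against a floor of 3 counts over the 3 control libraries, their level in NMuMG control medium was at least 80.9-fold higher for Gsta1, 29.1-fold for Gsta2, 17.9-fold for Gsta3 and 341-fold for Gstm5. Floors cover counting error only. Of the members measured in both lines, Gstm2 was higher in E0771 by 3.06 (SE 0.107), Mgst1 by 1.49 (SE 0.144) and Gstm1 by 1.29 (SE 0.192) on the log2 scale, while Gsta4 was lower by 2.25 (log2 difference -2.25, SE 0.254) and Gsto1 by 1.99 (-1.99, SE 0.0661). Gstp1 differed least (log2 difference -0.35, SE 0.135, adjusted p = 0.0281). That call was lost when any 1 of 5 control libraries was left out, all except NMuMG control replicate 1 (adjusted p over the alternatives 1.48e-07 to 0.0884). These 6 of 6 members passed edgeR's quasi-likelihood test, 3 higher and 3 lower in E0771, where 80.5% of all genes passed. The other 4 entered that fit through NMuMG alone and are not counted. Cell line and growth medium cannot be told apart in this comparison.

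**Figure D1:**
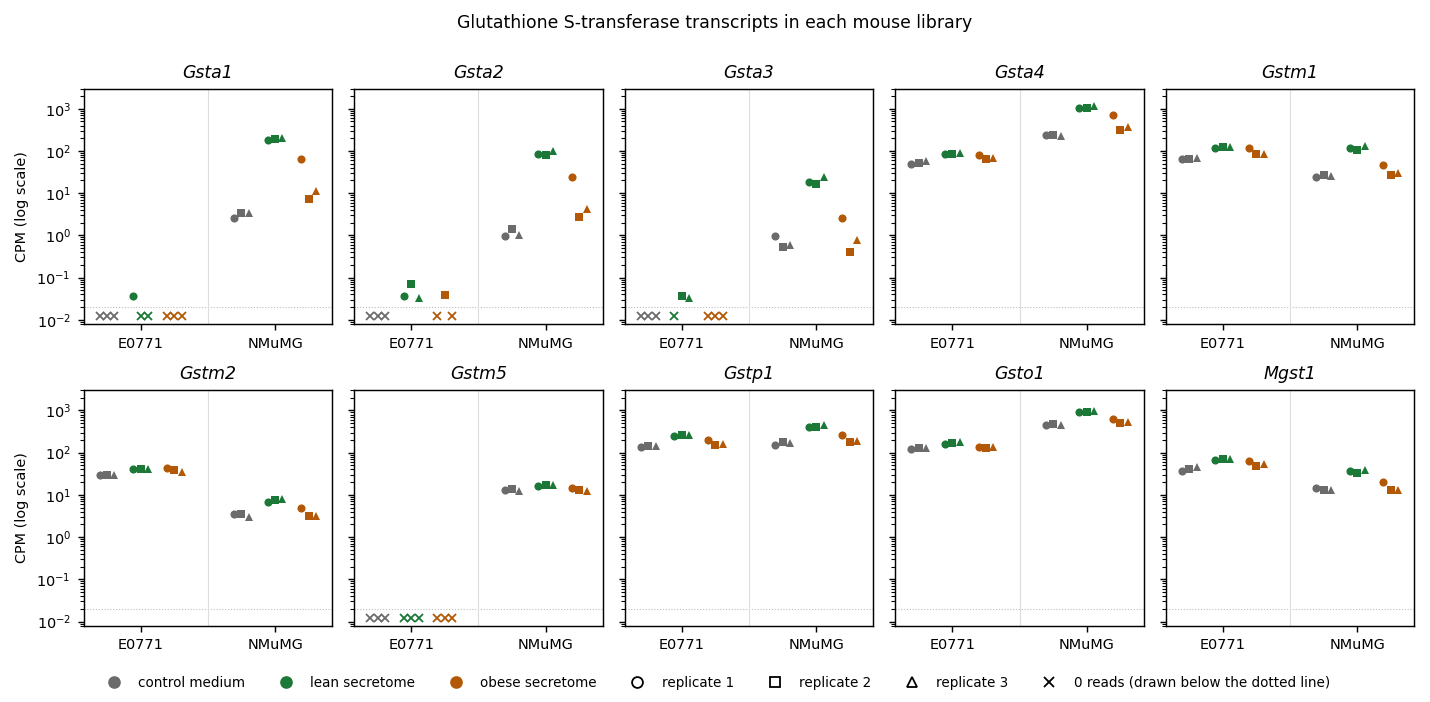
Level of each mouse member in every library, in CPM on a log axis, by line and medium. Symbols mark the replicate number, and crosses below the dotted line mark libraries with 0 reads. In NMuMG the lean secretome libraries stand above the others in all 10 panels, and Gsta1, Gsta2, Gsta3 and Gstm5 have few or no reads in E0771.

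In E0771 cells, lean secretome raised every member that could be tested, and 4 of these 6 genes were also higher than in obese secretome. A member was called at a Benjamini-Hochberg adjusted p under 0.05 over all genes tested. Against control medium 6 of 6 measured members rose, where 56.3% of all genes were called in either direction and 27.3% were called higher. Their median log2 fold change was 0.71, beside -0.013 over all genes. Against obese secretome 4 of 6 rose, where 52.7% of all genes were called and 25.8% were called higher, with a median of 0.33 beside 0.0035 over all genes. The other 4 of the 10 members were too low to enter the test in this line.

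Gstp1, the pi class enzyme, had the largest log2 fold change of lean over obese secretome among the 6 members tested in E0771, and over control it was close to Gstm1. Its level was 137, 141 and 141 CPM in the control libraries, 255, 258 and 262 CPM in lean secretome and 202.5, 149.5 and 164 CPM in obese secretome. The lean libraries lay above all others, and obese replicate 1 lay above the other obese libraries. Lean secretome raised Gstp1 by 0.88 over control (log2, SE 0.0981, adjusted p = 9.64e-05) and by 0.58 over obese secretome (SE 0.0970, adjusted p = 0.00122). Gstp2, the near copy with which Gstp1 shares sequence, stood at 7.21 CPM in lean and 4.98 CPM in obese secretome and rose by 0.53.

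Gsta4, the alpha enzyme for lipid aldehydes and the one alpha member measured in this line, stood at 49.5, 53.2 and 58.4 CPM in control medium. It stood at 86.1, 84.7 and 87.6 CPM in lean secretome and at 80.1, 64.6 and 68.0 CPM in obese secretome. The 3 groups did not overlap, with obese secretome between control and lean. The rise in lean secretome was 0.67 over control (SE 0.0713, adjusted p = 3.51e-07) and 0.28 over obese secretome (SE 0.0698, adjusted p = 0.00306). Mgst1, the membrane-bound enzyme, had the same order, with 37.7, 41.4 and 45.0 CPM in control, 67.2, 69.3 and 71.9 CPM in lean and 62.0, 47.5 and 53.9 CPM in obese secretome. Its groups did not overlap either. Lean secretome raised Mgst1 by 0.74 over control (SE 0.0827, adjusted p = 1.78e-06) and by 0.35 over obese secretome (SE 0.0807, adjusted p = 0.00209).

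Gsto1 stood at 120.5, 127 and 131 CPM in control, 164, 170.1 and 176 CPM in lean and 137, 129 and 137 CPM in obese secretome. The lean libraries were apart from both other groups, which overlapped. Gsto1 rose by 0.42 over control (SE 0.0436, adjusted p = 1.28e-08) and by 0.33 over obese secretome (SE 0.0435, adjusted p = 5.68e-07). Gstm1 stood at 65.5, 65.2 and 69.8 CPM in control, 120.2, 124 and 122 CPM in lean and 120.1, 85.5 and 86.8 CPM in obese secretome. Obese replicate 1 reached almost the lowest lean library. Gstm1 rose by 0.86 over control (SE 0.131, adjusted p = 0.00102), while its difference of 0.32 from obese secretome (SE 0.128) did not pass the test (adjusted p = 0.0756, range over the alternatives 2.39e-08 to 0.168). Without obese replicate 1 that difference was 0.49 and passed (adjusted p = 2.39e-08).

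Gstm2 stood at 29.0, 30.1 and 30.2 CPM in control, 40.1, 41.8 and 41.6 CPM in lean and 43.1, 38.2 and 34.7 CPM in obese secretome. The lean and obese libraries overlapped, and both lay above control. Gstm2 rose by 0.46 over control (SE 0.0674, adjusted p = 3.01e-06), and its difference of 0.08 from obese secretome did not pass (95% interval -0.05 to 0.22, adjusted p = 0.293). Without obese replicate 1 it was 0.17 and passed (adjusted p = 0.0391, range over the alternatives 0.0391 to 0.935).

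In NMuMG cells, Gsta1, Gsta2 and Gsta3 had the largest differences of the 10 members between lean secretome and both other media. Gsta4, the other alpha member, was already abundant and differed from control about as much as Gstm1. Gsta1 stood at 2.53, 3.45 and 3.47 CPM in control, 184, 187 and 197 CPM in lean and 65.5, 7.48 and 11.5 CPM in obese secretome. The 3 groups did not overlap, and obese replicate 1 held 6.91 times the mean of the other obese libraries. On the log2 scale Gsta1 was higher in lean secretome by 5.92 (SE 0.899) than in control and by 2.75 (SE 0.657) than in obese secretome. Gsta2 followed the same pattern, at 0.977, 1.42 and 1.00 CPM in control, 84.7, 78.5 and 100.8 CPM in lean and 23.9, 2.73 and 4.31 CPM in obese secretome. Its log2 differences were 6.29 (SE 0.838) over control and 3.10 (SE 0.590) over obese secretome. Without obese replicate 1 the difference from obese secretome was 4.30 for Gsta1 and 4.62 for Gsta2.

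Gsta1 and Gsta2, with the predicted genes Gm3776 and Gm10639 that share their sequence, summed to 8.29 ± 1.09 CPM in control, 432 ± 28.6 CPM in lean and 63.3 ± 68.3 CPM in obese secretome (SD, n = 3). This sum was formed after the values were seen. Gm3776 alone stood at 113 to 128 CPM in lean secretome and 3.13 to 3.47 CPM in control, so reads in this cluster were not limited to the named pair. The ratio of Gsta1 to Gsta2 CPM ran from 1.96 to 3.46 over the 9 libraries.

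Gsta3, the alpha enzyme known in mice for detoxifying aflatoxin epoxide, stood at 0.943, 0.536 and 0.608 CPM in control, 18.4, 16.1 and 24.4 CPM in lean and 2.63, 0.413 and 0.793 CPM in obese secretome. It shared no windows with other genes. Control and obese libraries overlapped and all 3 lean libraries stood above them, by 4.79 over control (log2, SE 0.480) and 3.94 over obese secretome (SE 0.443), the second being 4.98 without obese replicate 1. Gsta4 stood in control medium at 239, 240.4 and 231 CPM. It stood at 1060, 1053 and 1169 CPM in lean and 701, 309 and 363 CPM in obese secretome, with no overlap between the groups. The log2 differences of lean secretome were 2.21 (SE 0.316) over control and 1.24 (SE 0.306) over obese secretome, the second being 1.70 without obese replicate 1.

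The mu class members of NMuMG differed by amounts that ranged from small to large. Gstm1 stood at 23.7, 27.0 and 25.3 CPM in control, 115, 107 and 132 CPM in lean and 46.7, 26.4 and 29.7 CPM in obese secretome, a log2 difference of 1.77 (SE 0.209) between lean and obese. Gstm2 was low throughout, with 3.50, 3.45 and 2.93 CPM in control, 6.85, 7.75 and 8.10 CPM in lean and 4.80, 3.22 and 3.17 CPM in obese secretome, a log2 difference of 1.01 (SE 0.140). Gstm5 had the smallest difference of the 10 members, 0.32 (SE 0.0786), from 13.1, 14.1 and 12.6 CPM in control, 16.2, 17.4 and 17.1 CPM in lean and 14.4, 13.1 and 12.7 CPM in obese secretome. For these 3 genes the control and obese libraries overlapped, and the lean libraries stood apart.

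Gstp1 stood at 151, 176 and 168 CPM in control, 402, 399 and 442 CPM in lean and 256, 175 and 190.0 CPM in obese secretome, a log2 difference of 0.99 (SE 0.151) between lean and obese. Gsto1 stood at 458, 471 and 462 CPM in control, 919.7, 899.6 and 949.6 CPM in lean and 620.4, 492 and 535 CPM in obese secretome, a log2 difference of 0.74 (SE 0.0825). Mgst1 stood at 14.3, 13.2 and 13.2 CPM in control, 36.0, 33.8 and 38.7 CPM in lean and 20.1, 13.1 and 13.4 CPM in obese secretome, a log2 difference of 1.21 (SE 0.149). The lean libraries did not overlap the others for any of the 3, and for Gsto1 the obese libraries were also above control. Over control medium the log2 differences were 1.33 for Gstp1, 1.00 for Gsto1 and 1.42 for Mgst1. In NMuMG 10 of 10 members were past the threshold in lean against obese secretome and against control, where 35.0% and 38.2% of all genes were. These comparisons chose the members, so nothing is read from those counts.

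**Figure D2:**
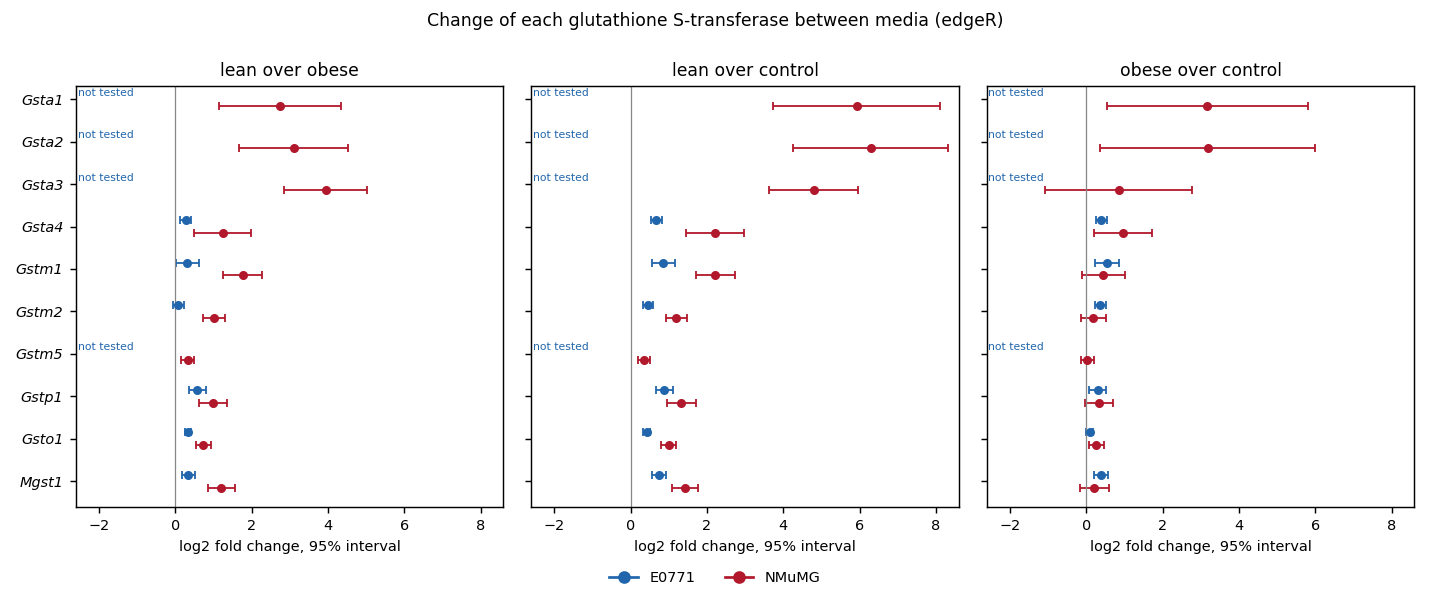
Log2 fold change of each mouse member in the 3 comparisons of media, for E0771 and NMuMG, with 95% intervals from edgeR. In NMuMG the lean over obese values run from 0.32 (Gstm5) to 3.94 (Gsta3), and in E0771 from 0.08 (Gstm2) to 0.58 (Gstp1). Members marked as not tested had too few reads in E0771.

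Obese secretome against control medium gave smaller differences than lean secretome against control for each member tested in either mouse line. They were not smaller throughout than those of lean against obese secretome, and they varied between libraries. In E0771 Gsta4 rose by 0.40 (SE 0.0722, adjusted p = 0.00742, range over the alternatives 7.32e-11 to 0.0637), Mgst1 by 0.39 (SE 0.0842, adjusted p = 0.0229, range 2.69e-09 to 0.131) and Gstm2 by 0.37 (SE 0.0682, adjusted p = 0.00366). These 3 of 6 members were called, where 2.61% of all genes were, and 5 of 6 had an unadjusted p under 0.05. The median was 0.38, beside -0.00039 over all genes. Gstm1 was higher by 0.54 (SE 0.133, adjusted p = 0.106) and Gstp1 by 0.30 (SE 0.0988, adjusted p = 0.200) without passing, and Gsto1 by 0.09 (95% interval -0.003 to 0.18). Gstm2 passed in 16 of 16 alternatives (adjusted p 1.64e-06 to 0.0418). The other calls changed with single libraries: 1 of 6, that of Gstm2, was left without control replicate 1, and 5 of 6 passed without obese replicate 2. Mgst1 lost its call without control replicate 1 (adjusted p = 0.131), control replicate 2 (0.107), lean replicate 2 (0.0510), lean replicate 3 (0.0774) or obese replicate 3 (0.0961), and Gsta4 without control replicate 1 (0.0543). Gstm1 passed without obese replicate 1 (0.000322) or obese replicate 2 (0.0420), and Gstp1 without obese replicate 2 (0.00231).

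In NMuMG 0 of 10 members passed edgeR's test for obese secretome against control, where 5.01% of all genes were called. At an unadjusted p under 0.05 there were 4, and with DESeq2 1 passed. The largest values, 3.17 for Gsta1 (SE 1.09, adjusted p = 0.204) and 3.19 for Gsta2 (SE 1.16, adjusted p = 0.236, range over the alternatives 0.00333 to 0.461), came with wide errors. Gsta2 was the member that passed with DESeq2 (adjusted p = 0.00333). The obese libraries lay above all control libraries for 4 members, Gsta1, Gsta2, Gsta4 and Gsto1, and 21.3% of all genes did not overlap between these groups. Without obese replicate 1, 3 members passed: Gsta1 by 1.62 (adjusted p = 0.00479, range over the alternatives 0.00479 to 0.433), Gsta4 by 0.52 (0.00318, range 0.00318 to 0.377) and Gsto1 by 0.16 (0.00547, range 0.000165 to 0.318). Without obese replicate 2, Gsto1 passed with 0.34 (0.000165). The other members stayed between -0.19 (Gsta3) and 1.67 (Gsta2) without obese replicate 1.

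Obese replicate 1 was the highest obese library for 6 of 6 tested members in E0771, at 1.03 to 1.39 times the mean of the other obese libraries. It was also the highest for 10 of 10 in NMuMG, at 1.12 to 6.91 times. The share of all genes with their highest obese value in this library was not computed. These counts are therefore not read as a trait of the members. Placed on the log2 scale between the control mean (0%) and the lean mean (100%), obese replicate 1 of NMuMG lay at a median of 44.0% over the 10 members, replicate 2 at 4.75% and replicate 3 at 12.9%. In E0771 the medians were 81.5%, 33.3% and 45.5% over 6 members. Whether the libraries numbered 1 share a secretome preparation is not given in the labels.

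For the members measured in both lines, the estimated response to lean secretome was smaller in E0771 than in NMuMG. Choosing members by their NMuMG values favours that direction, so it is given as a description. Since the NMuMG side chose the members, the differences are given without a p, and nothing is read from the count of 5 of 6 members past the threshold in each, where 34.2% (lean over obese) and 34.5% (lean over control) of all genes were. For lean over obese secretome, E0771 minus NMuMG was -1.44 (SE 0.246) for Gstm1, -0.95 (SE 0.337) for Gsta4, -0.91 (SE 0.148) for Gstm2, -0.85 (SE 0.189) for Mgst1, -0.39 (SE 0.186) for Gstp1 and -0.38 (SE 0.0901) for Gsto1. For lean secretome over control the differences were -1.51 (SE 0.344) for Gsta4, -1.34 (SE 0.252) for Gstm1, -0.71 (SE 0.149) for Gstm2, -0.65 (SE 0.191) for Mgst1, -0.55 (SE 0.0903) for Gsto1 and -0.43 (SE 0.187) for Gstp1. Gstp1 and Gsto1 had the smallest of these differences between the lines. For obese secretome over control the difference between lines ran from -0.56 (Gsta4) to 0.19 (Mgst1). There, 0 of 6 members passed edgeR's test of the difference, 0 had an unadjusted p under 0.05 and 0 passed with DESeq2, where edgeR called 1.69% of all genes.

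**Figure D3:**
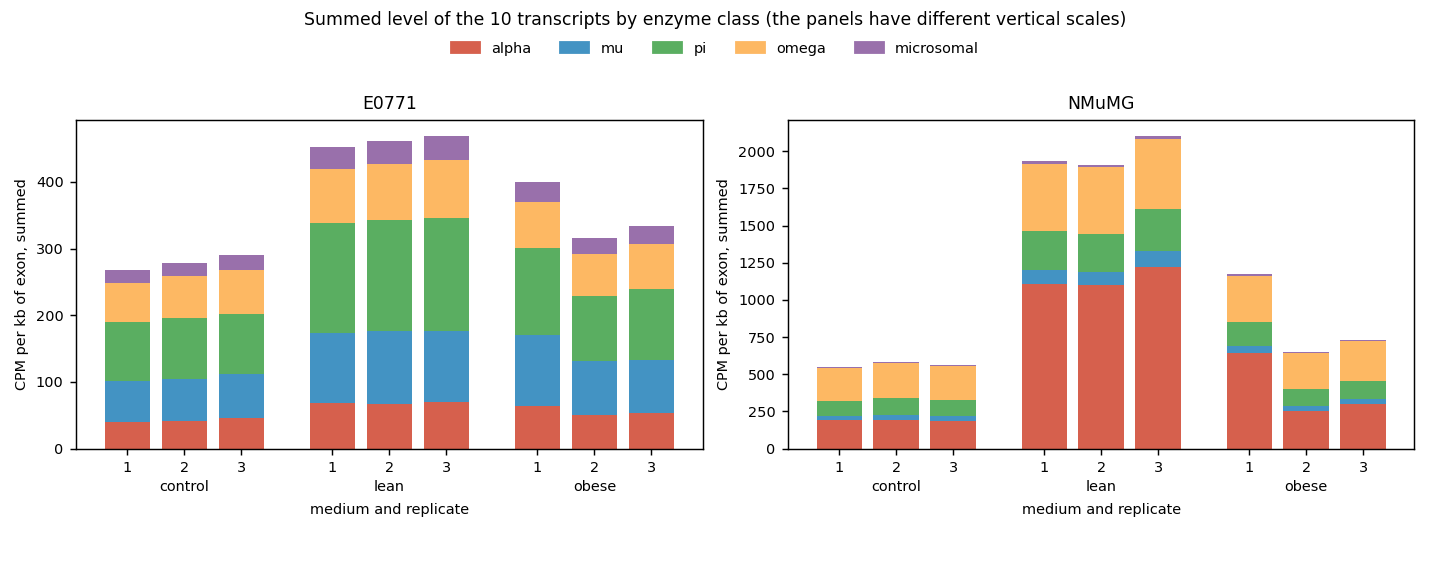
Summed level of the members by class in each library, in CPM per kilobase of exon, stacked as alpha, mu, pi, omega and microsomal (Mgst1), with a separate scale for each line. The NMuMG sums average 564 in control, 1981 in lean and 849 in obese secretome, and obese replicate 1 stands above the other obese libraries.

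The make-up of the summed members shifted in NMuMG and less so in E0771. Other family genes are left out of these sums, so the shares are not those of the whole family. The NMuMG comparisons of lean secretome chose the members, so the shift there is a description. The members summed to 564 ± 14.2 CPM per kb in NMuMG control medium, 1981 ± 106 in lean and 849 ± 282 in obese secretome (SD, n = 3). The alpha class held 34.0% ± 0.762 of that sum in control, 57.6% ± 0.434 in lean and 45.2% ± 8.47 in obese secretome, while the omega class (Gsto1) held 40.7% ± 0.426, 23.1% ± 0.638 and 33.4% ± 6.24. In E0771 the sums were 279 ± 11.1, 461 ± 8.07 and 350 ± 44.3 CPM per kb. There the pi class (Gstp1) held 32.4% in control, 36.2% in lean and 31.7% in obese secretome, and the alpha class stayed between 14.8% and 16.0% on average. The mu class held 22.7% to 25.4% of the sum in E0771 and 4.32% to 5.24% in NMuMG.

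In SkBr3 cells, MGST1 (ENSG00000008394) was higher in lean secretome than in both other media, and GSTP1 (ENSG00000084207) was low in all 3. MGST1 stood at 97.6, 90.6, 91.5 and 97.6 CPM in control, 226, 214, 172 and 218 CPM in lean and 143, 102, 115 and 152 CPM in obese secretome. The 3 groups did not overlap. MGST1 rose in lean secretome by 1.10 over control (SE 0.128, adjusted p = 6.14e-05) and by 0.67 over obese secretome (SE 0.126, adjusted p = 0.00185). GSTP1 stood at 8.43, 8.88, 10.6 and 7.44 CPM in control, 11.7, 12.8, 9.80 and 11.9 CPM in lean and 9.87, 10.7, 11.4 and 13.4 CPM in obese secretome. Its groups overlapped in all comparisons. GSTP1 rose by 0.36 in lean secretome over control (SE 0.111, adjusted p = 0.00987), while lean and obese secretome differed by -0.0023 (95% interval -0.22 to 0.22, adjusted p = 0.988).

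In SkBr3, 1 of 2 members was called in lean against obese secretome, where 44.1% of all genes were, and 2 of 2 in lean secretome against control, where 48.8% were. For obese secretome against control 0 of 2 passed edgeR's test, where 1.16% of all genes were called. Both had an unadjusted p under 0.05, and 1 passed with DESeq2. The values were 0.43 for MGST1 (SE 0.129, adjusted p = 0.160, range over the alternatives 0.0359 to 0.402) and 0.36 for GSTP1 (SE 0.111, adjusted p = 0.112, range 0.00997 to 0.431). MGST1 passed without obese replicate 2 (adjusted p = 0.0359), and GSTP1 without lean replicate 3 (0.0293), which changes the shared estimate of spread. The highest obese library was replicate 4 for both genes.

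**Figure D4:**
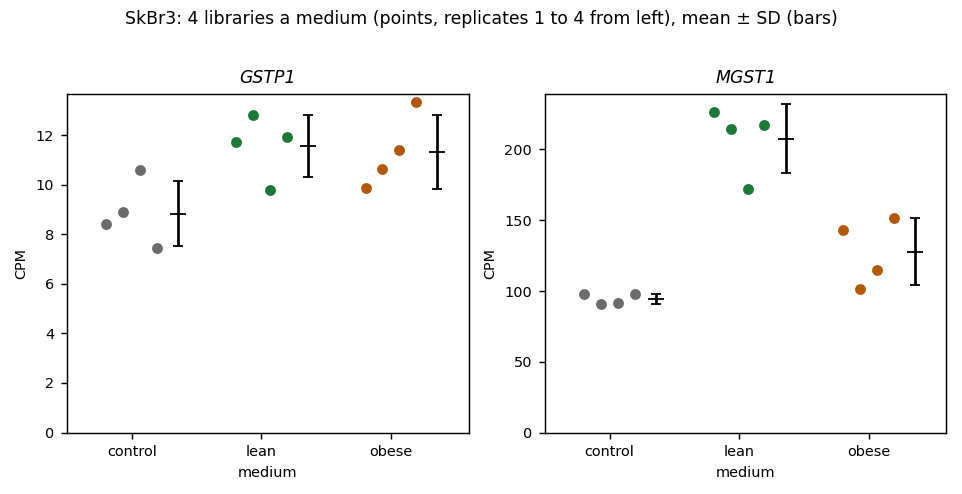
GSTP1 and MGST1 in the SkBr3 libraries, in CPM, with each replicate as a point and the mean ± SD of 4 replicates per medium. MGST1 averages 94.3 in control, 208 in lean and 128 in obese secretome, and GSTP1 averages 8.84, 11.6 and 11.3.

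Of 22 further family genes listed, 18 were matched by symbol and 12 were tested in each mouse line. In E0771, lean secretome against obese secretome raised 3 of 12 and lowered 3 of 12, a share close to the 52.7% of all genes called. Gstm7 (mu class) rose by 0.81, Ptges (a microsomal prostaglandin E synthase of the same superfamily as Mgst1) by 0.57 and Gstp2 by 0.53. Gstt1 and Gstt3 of the theta class fell by 1.22 and 0.46, and Gstz1, the zeta enzyme of tyrosine breakdown, fell by 0.63. The median of the 12 was -0.18. In NMuMG 7 of 12 rose and 1 fell, where 35.0% of all genes were called and 17.6% rose, with Gsto2 (omega class) up by 0.75, Mgst3 by 0.59 and Mgst2 by 0.46, and Gstcd lower by 0.21 (log2 fold change -0.21). Their median was 0.74, beside -0.0023 over all genes. That median also covers genes with a mean log2 CPM under 1, which were not named, so Gsto2 need not hold the largest change. Gsto2 also rose in obese secretome over control, by 0.99. These further genes were listed with earlier results of these data known, so their counts are a description.

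**Figure D5:**
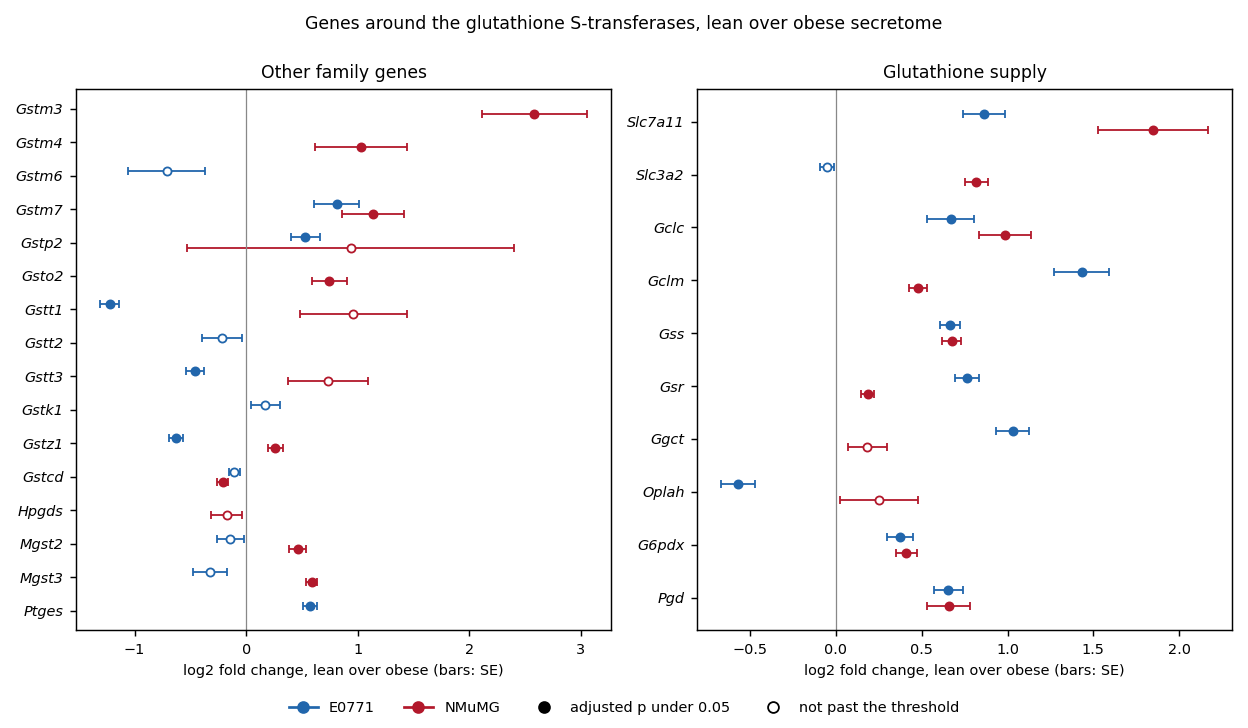
Log2 fold change of lean over obese secretome, with standard errors, for other glutathione S-transferase family genes and for genes of glutathione supply in E0771 and NMuMG. Filled points have an adjusted p under 0.05. Gstt1 lies at -1.22 in E0771, and Slc7a11 lies at 0.86 in E0771 and 1.85 in NMuMG.

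The transferases use glutathione, and 8 of 10 genes of its supply rose in lean against obese secretome in each mouse line. In E0771 Gclm, the modifier subunit of glutamate-cysteine ligase, rose by 1.43, Ggct by 1.03 and the cystine transporter Slc7a11 by 0.86, and Oplah fell by 0.57. In NMuMG Slc7a11 rose by 1.85, Gclc, the catalytic subunit of the ligase, by 0.99 and Slc3a2, the partner chain of Slc7a11, by 0.82, and 0 of 10 fell past the threshold. Genes of conjugate export and processing were more divided: 4 of 15 rose and 4 fell in E0771, led by the exporters Abcc4 (1.09) and Abcc1 (0.85), and 9 of 15 rose in NMuMG, led by Abcc2 (3.08) and Abcc4 (1.00). In a list of other detoxification and antioxidant genes, 10 of 13 rose and 1 fell in E0771. Hmox1 (3.30), Srxn1 (1.69) and Nqo1 (1.45) led among genes at that level, and Aldh3a1, below it, rose by 1.89. In NMuMG 17 of 18 rose, led among genes at that level by Aldh3a1 (3.30), Cbr3 (1.99) and Nqo1 (1.87). In these comparisons 25.8% of all genes rose in E0771 and 17.6% in NMuMG. The lists were chosen with earlier results of these data known, so their counts are a description and nothing is read from them beside those shares.

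Among regulators known to act on the family, Nfe2l2 averaged 87.4 CPM in control, 99.3 in lean and 91.8 in obese secretome in E0771, and 177, 160 and 168 CPM in NMuMG. Its log2 difference between lean and obese secretome was 0.11 in E0771 (SE 0.0599, adjusted p = 0.141) and -0.09 in NMuMG (SE 0.0379, adjusted p = 0.0637). Of 12 regulators tested in E0771, 5 rose, among them the small MAF factor genes Maff (1.30) and Mafk (0.75), and 5 fell, with Cebpb lowest at -0.49, where 52.7% of all genes were called. Of 17 tested in NMuMG, 4 rose, among them Fos (0.77), and 4 fell, among them Jun (-0.30), where 35.0% of all genes were called. In E0771, lean secretome against control medium raised 6 of the 12, Nfe2l2 among them, and lowered 5, where 56.3% of all genes were called. The regulators were listed with earlier results of these data known, so their counts are a description. Ahr had 0 reads in E0771 and averaged 70.2, 63.1 and 69.8 CPM in NMuMG control, lean and obese libraries. Its log2 difference between lean and obese secretome in NMuMG was -0.16 (SE 0.0547, edgeR adjusted p = 0.0251). Hnf4a, a liver and gut factor, averaged 389, 356 and 352 CPM in NMuMG, and the level of any regulator was not tested as a source of the difference between lines.

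By the same rule in each line, the genes most like the member with the largest difference between lean and obese secretome were sought. In E0771 that member was Gstp1, and over the 9 libraries Esd (Pearson r = 0.999), Cyb5a (0.997), Fth1 (0.997), Twf1 (0.997) and Txn1 (0.996) were closest of 9500 genes. In NMuMG it was Gsta3, and Gjb1 (0.998), Entpd5 (0.995), Gclm (0.995), Slc39a6 (0.994) and Cyb5a (0.993) were closest of 10142 genes. The 9 libraries fall into 3 media and share their depth and normalization, so these values describe the order of the libraries and carry no test.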

How the data were processed

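The authors deposited raw counts of reads per Ensembl gene ID, whole numbers without normalization, in a mouse table (E0771 and NMuMG) and a human table (SkBr3). Per the submitters' processing notes, the tools were cutadapt 1.16, STAR 2.7.9a and featureCounts 1.6.3, with build GRCm39. The human build, the annotation release, the strand setting and the treatment of multi-mapping reads are not given in the sources used here. Symbols of the mouse table came from GENCODE M21, which matched 52073 of 56980 IDs, and exon lengths came from the same release. Reads carry no molecular identifiers.

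Each line was fitted alone with its 3 media in edgeR 4.0.16 (R 4.3.3) with filterByExpr, TMM factors, a robust quasi-likelihood fit and Benjamini-Hochberg adjustment over all genes tested (13813 in E0771, 15014 in NMuMG, 14874 in SkBr3). The threshold was an adjusted p under 0.05. Differences between the mouse lines came from 1 fit of 18 libraries and 16529 genes. Printed CPM are counts over library totals, without TMM factors. The scripts were tested on simulated data. Alternatives were DESeq2 1.42.0, its size factors, no filter, fits of 2 groups, summed paralogs, a replicate block and leaving out each library.

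The members and lists were chosen with earlier results of these data known. All members were named. From other lists, up to 3 called genes per direction with the largest lean over obese change and a mean log2 CPM of at least 1 were named, and the 5 genes most correlated with the leading member of each line.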

Additional observations from a re-analysis of the deposited data

Results flagged for a closer look

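The following results were listed because they passed the threshold for a difference between the 2 mouse lines. The fit was edgeR over all 18 mouse libraries. The NMuMG comparisons chose the members, so nothing is read from their passing, and the differences are values without a p. Gstp1 did not pass and is not listed, with -0.39 for lean over obese secretome and -0.43 for lean secretome over control. For lean over obese secretome, the log2 fold change in E0771 was below that in NMuMG for Gsta4 (E0771 minus NMuMG -0.95), Gstm1 (-1.44), Gstm2 (-0.91), Gsto1 (-0.38) and Mgst1 (-0.85). For lean secretome over control, it was lower in E0771 for Gsta4 (-1.51), Gstm1 (-1.34), Gstm2 (-0.71), Gsto1 (-0.55) and Mgst1 (-0.65). The Gsta4 difference for lean over obese secretome ranged from -1.40 to -0.73 over 24 alternatives. It stayed past the threshold in 5 of these and lost it in 19. In the 6 groups of 4 SkBr3 libraries, 0 values of GSTP1 or MGST1 stood far enough from their group to be listed here, and groups of 3 were not examined in this way.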

How the results depend on the processing

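Counts of members past the threshold stayed within 1.5 times the reported count in 230 of 242 combinations of comparison and alternative. Single members kept their side of the threshold in 1372 of 1434. Calls were gained in 23 and lost in 39, and 19 of those lost were Gsta4 between the lines for lean over obese secretome. Of 78 single results 7 changed sign under some alternative, each in a comparison where the member was not called. For obese secretome against control, the count of 3 in E0771 became 1 when only the 2 groups compared were fitted. The count of 0 in NMuMG became 1 without the low-count filter and 1 with DESeq2. The count of 0 in SkBr3 became 1 without the filter, 1 with DESeq2 and 1 when only the 2 groups compared were fitted. The causes were not tested.

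Leaving out each library in turn gave 6 called members in every fit for lean secretome over control in E0771, 4 to 6 for lean over obese and 1 to 5 for obese over control. In NMuMG the counts were 10 in every fit, 8 to 10 and 0 to 3 in the same order, and in SkBr3 2, 1 and 0 to 1. In NMuMG, Gsta1 fell below the threshold for lean over obese secretome without lean replicate 3 or obese replicate 3, and Gsta4 without lean replicate 1, lean replicate 3 or obese replicate 3. For the difference between lines the counts were 4 to 6 for lean over obese, 5 to 6 for lean over control, 0 for obese over control and 7 to 10 in control medium, the last over 10 members of which 4 passed the filter through NMuMG alone. Throughout this section nothing is read from counts that involve lean secretome in NMuMG, since those comparisons chose the members. Leaving out obese replicate 1 of both lines, and summing Gm3776 and Gm10639 with Gsta1 and Gsta2, were alternatives chosen after seeing the data.

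A fit with the replicate block, which pairs libraries of the same number, gave 4, 6 and 3 members in E0771 for lean over obese, lean over control and obese over control, 10, 10 and 0 in NMuMG and 1, 2 and 0 in SkBr3. For the differences between lines it gave 4, 5 and 0 in the same order. It was not run for the control-medium difference between lines, where it could not be estimated. The numbers did not pair the libraries: correlations of same-numbered libraries ran from -0.09 to 0.11 in E0771, -0.03 to 0.03 in NMuMG and -0.05 to 0.05 in SkBr3, and 5 of 9, 4 of 9 and 1 of 12 libraries correlated best with their own number.

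Replicates of a group differed by more than counting error (chi-square per degree of freedom 1.99 to 15.4). Gsta1, Gsta2, Gsta3 and Gstm5 had too few reads to be tested in E0771, 0 to 5 each over 9 libraries.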

Other observations

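In NMuMG, the division of reads between Gstp1 and its near copy Gstp2 differed in 1 library. Control replicate 1 had 18.0 CPM (534 reads) of Gstp2, which was 10.6% of the reads of the pair, while the other control libraries had 0.919 and 1.29 CPM. In the other 8 NMuMG libraries the share lay between 0.519% and 0.774%. The sum of both genes was 169.1, 177 and 169.7 CPM in the control libraries. Control replicate 1 was the lowest of the 3 for Gstp1 alone (151 CPM, against 176 and 168), and its sum was close to that of replicate 3.

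Gm3776 and Gm10639, predicted genes that share sequence with Gsta1 and Gsta2, stood at 120, 113 and 128 CPM and at 33.1, 31.8 and 38.6 CPM in the lean NMuMG libraries. In the obese libraries Gm3776 stood at 43.0, 8.34 and 9.41 CPM and Gm10639 at 9.72, 1.28 and 2.80 CPM, highest in replicate 1 as for the named members.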
